A study of Mus musculus with 41 samples.

Results

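Centriole duplication and centrosome genes were followed through 41 mouse mammary tumors, with 1 RNA library per tumor. The 10 genes, Stil, Sass6, Cenpj, Cep152, Cep192, Cep63, Cep135, Pcnt, Tubg1 and Nedd1, were chosen by symbol from the 47480 gene symbols measured, and all 10 passed the filter on low values. The tumors were 28 Plk2-/-;p53-/- and 13 p53-/- tumors, all on the Balb/c background, so p53 was absent from both groups. Plk2-/-;p53-/- mammary epithelial cells had been placed in cleared fat pads of wild-type hosts, and the tumors of both genotypes were then grown without treatment in syngeneic hosts. No label gives an animal's age or says which tumors share a parent tumor, so the p-values measure the spread between these tumors only. Tumor names keep the labels' form, such as PLK2null-7748, p53null-5317 and T11, the last a p53-/- tumor.

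A centrosome holds a pair of centrioles in a shell of pericentriolar material from which microtubules grow. In each cell cycle the kinase Plk4 starts a new centriole beside each old one, and both too few and too many centrioles disturb the mitotic spindle. Extra centrosomes are often seen in breast tumors, and Plk2, the kinase removed in 1 of the genotypes, has itself been tied to centriole duplication.

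Values are upper-quartile normalized expression on a linear scale. The upper quartile of the nonzero genes was 1000 in p53null-2224L, the tumor in which it was worked out. Implied depth was 31910319 to 53244314 fragments in the Plk2-/-;p53-/- tumors and 29409526 to 70868089 in the p53-/- tumors. Plk2 itself, the gene that checks the labels, ran from 36.6 to 553 (median, 284) in the Plk2-/-;p53-/- tumors and from 186 to 8028 (median, 3402) in the p53-/- tumors. The library labelled p53null-7435 had the 186, inside the Plk2-/-;p53-/- range, whereas the other 12 exceeded all 28. Results that turn on this library are given with and without it. The titles of the p53-/- libraries alone carry a numbered series name, so a library series and the genotype cannot be told apart. In bulk tumors, a change in the number of expressing cells and in RNA per cell cannot be told apart either.

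The members fall into roles. Cep192 and Cep152 (GRCm38 chromosome 2, 125563088 to 125625113) are scaffolds that bring Plk4 to the old centriole, and Cep63 (chromosome 9, 102584588 to 102626534) binds Cep152 there. Stil (chromosome 4, 115000159 to 115043196) is bound and phosphorylated by Plk4 and recruits Sass6 (chromosome 3, 116594982 to 116631004), which builds the cartwheel at the base of the new centriole. Cep135 (chromosome 5, 76588698 to 76646466) joins the cartwheel to the centriole wall, and Cenpj (chromosome 14, 56526761 to 56575425) adds to the length of that wall. Pcnt (chromosome 10, 76351263 to 76442786) is a scaffold of the pericentriolar material. Tubg1 (chromosome 11, 101119938 to 101126419) encodes gamma-tubulin, which seeds microtubules, and Nedd1 (chromosome 10, 92684746 to 92722420) anchors the gamma-tubulin ring complex.

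RefSeq promoters, 250 bases before to 50 after the annotated start, were used for 7 members and Plk4, whose transcript levels are compared further on. No window was searched for the other members, named further on, so the counts below do not cover them. They were searched on both strands for letters known from cell-cycle promoters, and a match is a description of the sequence only. The E2F-type words searched were TTCCCGC, held by 4.66% of all 27025 promoters, TTTCGCG, held by 0.844%, and TTGGCGC, held by 2.54%. At least 1 of them stood in 5 of these 8 windows, those of Stil, Cep152, Cep63, Pcnt and Plk4, and in 7.64% of all promoters. A CHR word (TTTGAA or TTCGAA) stood in 2, those of Sass6 and Cep152, against 19.4% of all promoters. CCAAT stood in 4, those of Stil, Cep152, Cep135 and Pcnt, against 37.9%. The stretches below, 60 bases each on the gene's strand of GRCm38.p6, show the E2F word of Plk4, of the Plk4 scaffold Cep152 and of Pcnt before the start, with all matched words in capitals. They cover chr3:40799804-40799863 for Plk4, chr2:125625254-125625313 for Cep152 and chr10:76442913-76442972 for Pcnt.
Plk4: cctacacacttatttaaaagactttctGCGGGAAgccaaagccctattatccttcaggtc
Cep152: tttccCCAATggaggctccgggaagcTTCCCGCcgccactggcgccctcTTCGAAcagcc
Pcnt: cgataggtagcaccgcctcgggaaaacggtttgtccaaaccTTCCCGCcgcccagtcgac
The E2F word of Plk4 lies on the opposite strand and begins 120 bases before the start, that of Cep152 begins 174 bases before it, and that of Pcnt 19. In Cep152 the CCAAT, the E2F word and the CHR word TTCGAA, which 1.57% of all promoters hold, follow each other within this stretch.

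Levels of different genes were compared per kilobase of the longest annotated transcript. In the Plk2-/-;p53-/- tumors Tubg1 had the highest median level per kilobase, 695, and Cep135 the lowest, 61.6. Plk4 stood at 262 per kilobase, between Tubg1 and Nedd1 at 174. Below Nedd1 came Cep192 at 162, Pcnt at 122, Cep63 at 113, Stil at 90.6, Sass6 at 76.5, Cep152 at 73.6 and Cenpj at 72.0. The interquartile range of Tubg1 (607 to 781) and that of Plk4 (228 to 317) met neither each other nor that of Nedd1 (156 to 211). From Nedd1 downward, each member's interquartile range over the tumors overlapped that of the next.

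The first comparison asked whether these genes differ between Plk2-/-;p53-/- and p53-/- tumors. Of the 10 members, 7 were higher in the Plk2-/-;p53-/- tumors and 0 were lower, while 24.3% of the 17208 genes tested were called higher and 15.3% lower. The 7 were Stil, Sass6, Cenpj, Cep152, Cep192, Cep135 and Pcnt, that is, 6 of the 7 assembly genes, all but Cep63, and the pericentriolar scaffold. The differences of the other 3 were also positive. The median difference over the members was 0.70 in log2(value + 1), against 0.10 over all genes tested. Calls rest on limma with Benjamini-Hochberg adjustment over all genes tested, at a threshold of 0.05.

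**Figure D1:**
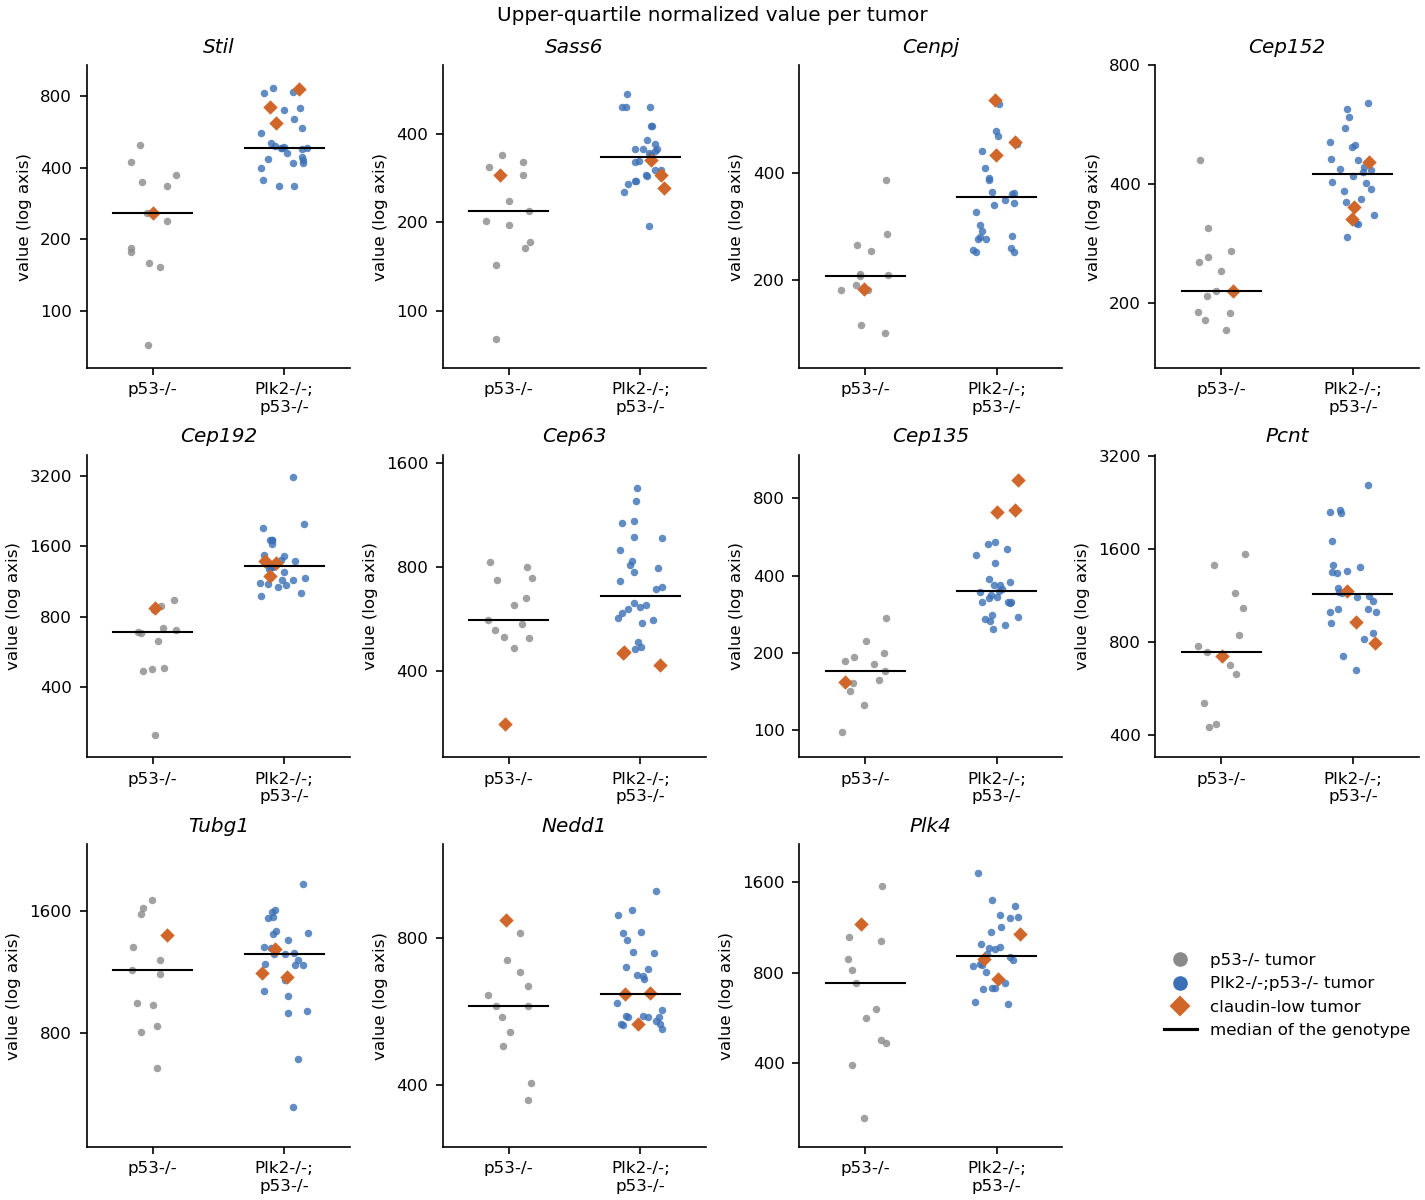
Upper-quartile normalized value (log axis) of each gene in each tumor. Grey points are the 13 p53-/- tumors, blue points the Plk2-/-;p53-/- tumors, orange diamonds the 4 claudin-low tumors and bars the median of all tumors of a genotype. For Cep192 all 28 Plk2-/-;p53-/- tumors lie above all 13 p53-/- tumors, while Tubg1 and Nedd1 overlap over most of their range.

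Among the Plk4 scaffolds, Cep192 (chromosome 18, 67800107 to 67885170) was at 978 to 3151 (median, 1314) in the Plk2-/-;p53-/- tumors and at 251 to 941 (median, 688) in the p53-/- tumors. The groups did not overlap, which held for 1.12% of the genes tested in this direction and 0.227% in the other, and the difference was 1.12 ± 0.143 (SE; adjusted p = 3.06e-08). Cep152 was at 293 to 641 (median, 424) in the Plk2-/-;p53-/- tumors and at 171 to 461 (median, 215) in the p53-/- tumors. Only p53null-5317, at 461, and the library labelled p53null-7435, at 310, reached into the Plk2-/-;p53-/- range, and the difference was 0.84 ± 0.116 (SE; adjusted p = 1.50e-07). Cep63, their partner, was at 417 to 1349 (median, 661) against 282 to 829 (median, 563). Of the Plk2-/-;p53-/- tumors 8 lay above all 13, of the p53-/- tumors 1 lay below all 28, and the difference of 0.26 ± 0.154 (SE) was not called (adjusted p = 0.178).

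Stil, the Plk4 substrate, was at 335 to 864 (median, 486) in the Plk2-/-;p53-/- tumors and at 71.9 to 501 (median, 257) in the p53-/- tumors. Of the 13 p53-/- tumors, 8 lay below every Plk2-/-;p53-/- tumor, and the difference was 1.14 ± 0.181 (SE; adjusted p = 2.38e-06). The cartwheel gene Sass6 was at 195 to 545 (median, 332) against 80.5 to 339 (median, 219), a difference of 0.66 ± 0.146 (SE; adjusted p = 0.000333). The same tumor, p53null-10152, held the lowest value of Stil, Sass6 and Cep192, and without it the differences were 0.997, 0.54 and 1.01, all still called. On the opposite strand, Gm42893 (mean value, 45.1) shares 24.5% of the exon bases of Sass6 and Trmt13 (mean value, 328) shares 6.36%. The strand setting of the counting is not given in the sources used here, so reads from these overlaps cannot be told apart.

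Cep135 was at 248 to 946 (median, 347) in the Plk2-/-;p53-/- tumors and at 97.9 to 273 (median, 171) in the p53-/- tumors. The single overlapping p53-/- value, 273, came from the library labelled p53null-7435. The difference was 1.17 ± 0.153 (SE; adjusted p = 5.36e-08). Without that library the highest p53-/- value was 223, no Plk2-/-;p53-/- tumor lay below it, and the difference was 1.23 (adjusted p = 2.62e-08). In the same 12 against 28 tumors, 1.45% of genes were higher with no overlap and 0.238% lower.

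Cenpj, the wall elongation gene, was at 239 to 640 (median, 342) against 142 to 382 (median, 205), a difference of 0.74 ± 0.141 (SE; adjusted p = 4.40e-05). The library labelled p53null-7435 again held the highest p53-/- value, 382, and without it the difference was 0.81 (adjusted p = 8.16e-06). In the shell, Pcnt was at 649 to 2584 (median, 1141) against 424 to 1539 (median, 741), with wide overlap and a difference of 0.62 ± 0.176 (SE; adjusted p = 0.00471). Without the library labelled p53null-7435, the highest of the p53-/- tumors for Pcnt, the difference was 0.70 (adjusted p = 0.00136).

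Tubg1 and Nedd1 were not called. Tubg1 was at 526 to 1865 (median, 1252) against 657 to 1704 (median, 1145), a difference of 0.08 ± 0.135 (SE; adjusted p = 0.657). Tubg2, a near-identical paralog, can take part of its reads. Nedd1 was at 522 to 999.5 (median, 616) against 373 to 872 (median, 582), a difference of 0.14 ± 0.109 (SE; adjusted p = 0.304). In both genes the tumors of the 2 genotypes spread over much the same range.

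Plk4 was at 628 to 1709 (median, 912) in the Plk2-/-;p53-/- tumors and at 264 to 1555 (median, 741) in the p53-/- tumors. The difference of 0.44 ± 0.167 (SE; adjusted p = 0.0320) was called, but the groups overlapped widely and the call was lost without p53null-10152 (0.38; adjusted p = 0.0751). It was also lost after rescaling by the median ratio between tumors (0.33; adjusted p = 0.114) and after quantile normalization (0.39; adjusted p = 0.0527). Of its relatives, Plk1, the mitotic polo kinase, differed by 0.12 (adjusted p = 0.667) and Plk3 by 0.71 (adjusted p = 0.0112).

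The genotype difference moved with transcript length over the whole transcriptome, and most members are long. Over 16600 genes with an annotated transcript, Spearman's rho across genes between the difference and the longest transcript was 0.309, and genes are not independent replicates. The median difference rose from -0.25 in genes under 2 kb to 0.35 at 5 to 6 kb and 0.61 at 8 kb or more, and the share called higher rose from 15.1% to 52.6%. Longest transcripts were 1.802 kb for Tubg1, 3.534 kb for Nedd1, 3.479 kb for Plk4 and 4.34 kb or more for the other 8 members, up to 9.341 kb for Pcnt. Pcnt, at 0.62, lay close to the median of its length class, and Cep63, at 0.26, lay below that of its own. Stil, Sass6, Cenpj, Cep135, Cep152 and Cep192 lay above the upper quartile of their length class.

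**Figure D2:**
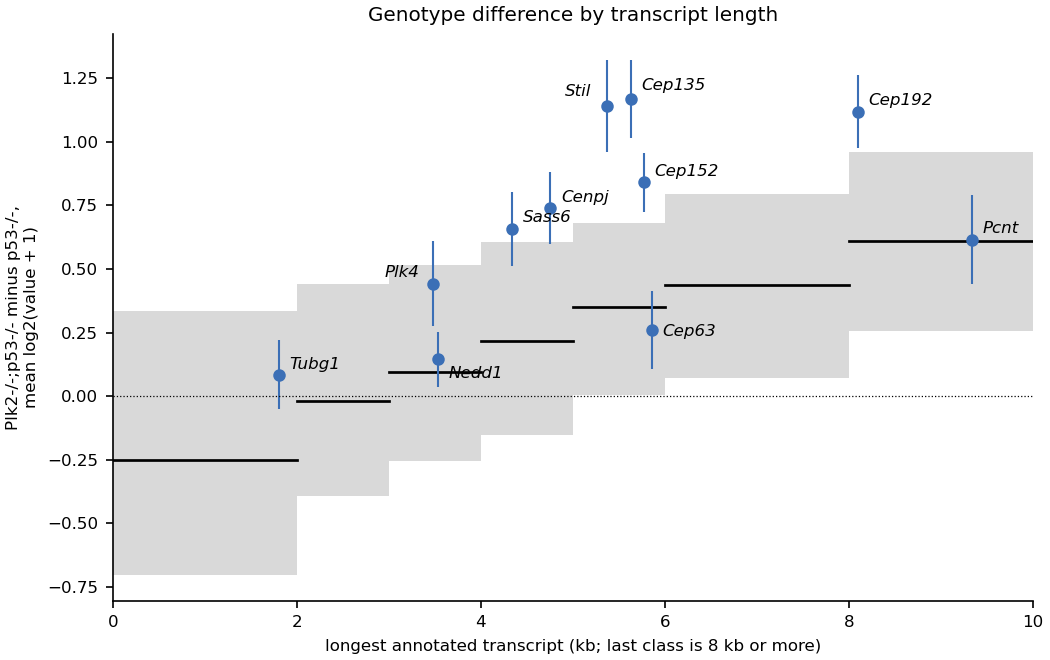
Genotype difference in mean log2(value + 1), Plk2-/-;p53-/- minus p53-/-, against the longest annotated transcript in kb. Black lines and grey boxes give the median and interquartile range of all tested genes of each length class, and blue points the members and Plk4 with standard errors. Stil, Sass6, Cenpj, Cep135, Cep152 and Cep192 sit above the grey boxes and Pcnt close to the median line.

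A smooth term of transcript length and GC content was therefore removed from each tumor before a further fit, an alternative added after seeing the data. In that fit 15.7% of genes were higher and 18.8% lower, and 5 members were called higher. Cep135 differed by 0.78 (adjusted p = 4.46e-05), Stil by 0.74 (adjusted p = 0.00247), Cep192 by 0.57 (adjusted p = 0.00222), Cep152 by 0.53 (adjusted p = 0.00115) and Cenpj by 0.39 (adjusted p = 0.0321). The calls of Sass6 (0.25; adjusted p = 0.250), Pcnt (0.32; adjusted p = 0.169) and Plk4 (0.12; adjusted p = 0.653) were lost. The uncalled differences of Cep63 and Nedd1 turned negative, at -0.28 and -0.22. What sets the length dependence was not tested.

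Tumors that share a parent tumor would not be independent, and tests that take all 28 Plk2-/-;p53-/- tumors as independent would then give p-values that are too small. Which tumors do so is not known, but the most alike pair of all tumors was PLK2null-7750 and PLK2null-1984. Among the 28 Plk2-/-;p53-/- tumors, 7 carry neighbouring numbers that begin with 77, PLK2null-7750 among them. With these 7 alone against the 13, where 11.6% of genes were called higher and 5.69% lower, Cep135, Cep192, Stil, Cep152 and Cenpj were called, with differences from 0.91 for Cenpj to 1.22 for Cep192. Sass6 (0.70; adjusted p = 0.0594) and Pcnt (0.56; adjusted p = 0.182) were not. With the length and GC term removed as well, where 6.05% of genes were higher and 4.49% lower, Cep135 alone was called (0.71; adjusted p = 0.0144). Cep152 stood at 0.66 (adjusted p = 0.0593), Stil at 0.73 (adjusted p = 0.190) and Cep192 at 0.63 (adjusted p = 0.129).

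The summed value of 8 proliferation genes was 17980 to 70745 (median, 29460) in the Plk2-/-;p53-/- tumors and 10571 to 36625 (median, 21922) in the p53-/- tumors. Of the 8 genes, only Mki67, the Ki-67 antigen, was called higher (0.95; adjusted p = 0.000116), and its call was lost with the length and GC term removed (0.37; adjusted p = 0.174). With the mean of the 8 as a covariate, the number of members called higher was again 7. Of the marker lists, all 4 muscle genes and 2 of 6 epithelial genes were lower in the Plk2-/-;p53-/- tumors and 1 of 5 macrophage genes was higher, while none of the endothelial, T cell, B cell, fibroblast and adipocyte genes was called by limma. Muscle sums were 17.1 to 2649 against 21.6 to 34313, and epithelial sums 48.0 to 109942 against 33757 to 276620. Their part in the member differences was not tested.

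**Figure D3:**
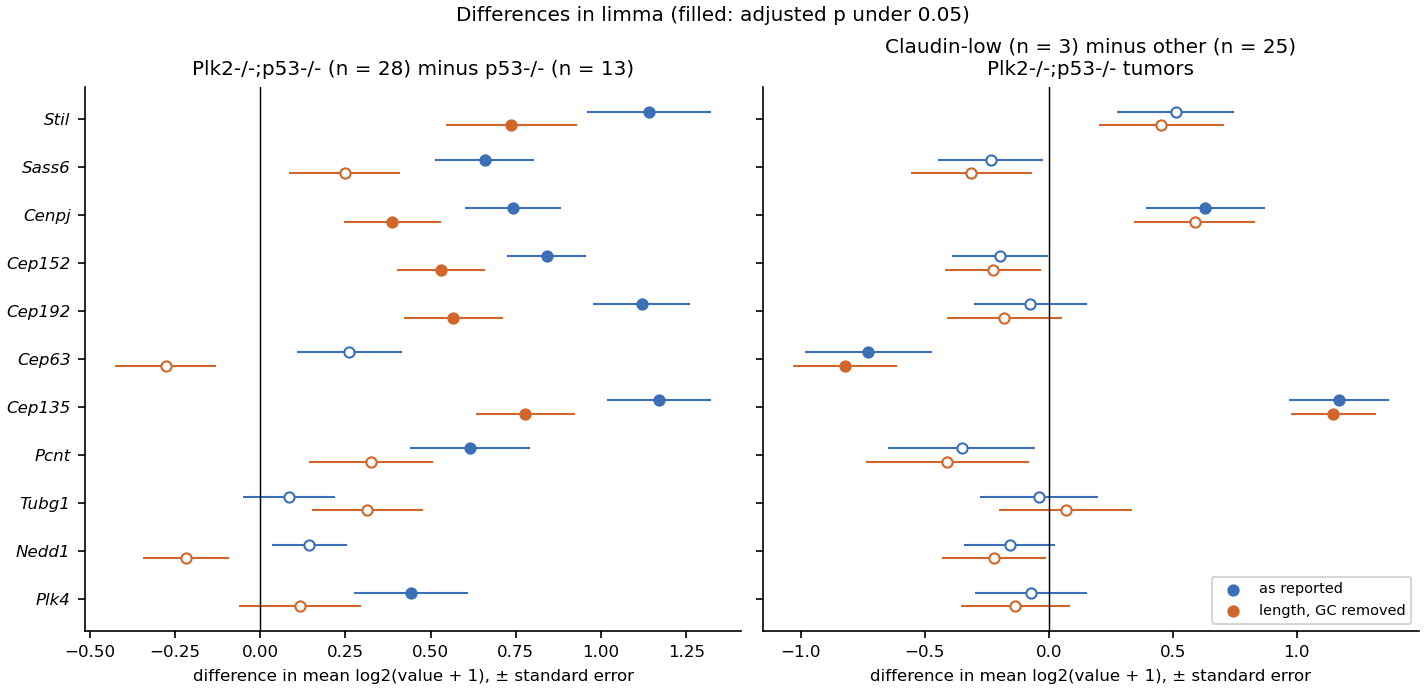
Differences in mean log2(value + 1) with standard errors from limma, for the genotype comparison (left) and the claudin-low comparison within Plk2-/-;p53-/- tumors (right). Blue is the fit as reported, orange the fit with the transcript length and GC term removed, and filled points have an adjusted p under the threshold. Removal of the term moves 9 members and Plk4 to the left in the genotype panel, Tubg1 to the right, and shifts the claudin-low differences less.

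Other genes of the centriole did not move one way. Of 24 other centriole assembly and number genes, 9 were higher and 3 lower, against 24.3% and 15.3% of all genes tested, with a median difference of 0.34. The largest increases were in Ccp110 (1.38; adjusted p = 5.69e-07) and Cep97 (1.03; adjusted p = 3.27e-05), which together cap the centriole end, and in Cep295 (1.33; adjusted p = 4.55e-07), needed to turn a new centriole into a centrosome. Ppp1r35 (-1.03; adjusted p = 6.14e-05), Cetn2, a centrin (-0.67; adjusted p = 0.000689), and Cep44 (-0.37; adjusted p = 0.0494) were lower. The call of Cep44 was lost without the library labelled p53null-7435 (adjusted p = 0.0708). With the length and GC term removed, 7 of the 24 were higher and 5 lower, against 15.7% and 18.8% of all genes.

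Of 21 other genes of the pericentriolar material and gamma-tubulin complexes, 6 were higher and 5 lower, against 24.3% and 15.3% of all genes, with a median of 0.17. The scaffold Akap9 (1.13; adjusted p = 1.74e-08), the ring complex subunit Tubgcp4 (0.78; adjusted p = 7.22e-09) and the augmin subunit Haus6 (0.78; adjusted p = 9.42e-05) were higher. Mzt2, a small ring complex protein (-0.76; adjusted p = 0.000543), and the augmin subunits Haus7 (-0.65; adjusted p = 0.00174) and Haus4 (-0.63; adjusted p = 5.69e-05) were lower, so augmin subunits changed in both directions. With the length and GC term removed, 4 were higher and 6 lower, against 15.7% and 18.8% of all genes, the median was -0.23, and Haus6 was not called (0.24; adjusted p = 0.198).

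Of 21 appendage, linker and satellite genes, 10 were higher and 1 lower, against 24.3% and 15.3% of all genes, with a median of 0.35. They were led by Cep290 (1.12; adjusted p = 0.00165), the centrosome linker gene Cep250 (1.12; adjusted p = 2.13e-08) and Nin, ninein (0.96; adjusted p = 0.000187), and Cep89 was lower (-0.50; adjusted p = 0.0210, and 0.0535 without the library labelled p53null-7435). With the term removed 2 were higher and 2 lower, both shares below those of all genes. Cep290 (0.37; adjusted p = 0.317) and Nin (0.38; adjusted p = 0.101) were then not called, and Cep250 was (0.92; adjusted p = 3.32e-05).

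The second comparison asked how the members stood in claudin-low tumors, which have low claudin and epithelial gene expression. PLK2null-732, PLK2null-733, PLK2null-743 and T11 were taken as claudin-low. The study's text classes the Plk2-/-;p53-/- tumors by clustering of their expression and names PLK2null-743 and the p53-/- tumor T11 as claudin-low, but it does not name the other 2. The comparison is not independent of a class set from expression of the same tumors. Cldn3 was at 1.13 to 19.9 and Cldn7 at 4.52 to 23.6 in the 4 tumors, against medians of 3282 to 7000 in the other tumors of their genotypes. T11 was unlike the other 3 in some other markers. The sum of 6 epithelial markers was 48.0 to 361 in PLK2null-732, PLK2null-733 and PLK2null-743, 19143 to 109942 in the other 25 Plk2-/-;p53-/- tumors and 33757 in T11, where the keratin Krt8 was at 11057. Krt14, a basal keratin, was at 0 in PLK2null-743.

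The sum of 6 endothelial markers was 165585 to 186496 in PLK2null-732, PLK2null-733 and PLK2null-743, all 6 of them called higher there, 2572 to 78025 in the other 25 and 6876 in T11. All 5 T cell and 4 B cell markers were also called higher in the 3 tumors, with sums of 486 to 1119 and 661 to 887 against medians of 53.2 and 24.7 in the other 25. Adipocyte sums were 99117 to 124679 against 226 to 51738, but the adipocyte list did not rise as a whole. Of its 3 tested genes, 2 had positive differences and 1 was called higher. Of 6 fibroblast genes 3 were lower, and none of the macrophage or muscle genes was called by limma. Fibroblast sums were 14888 to 56137 in the 3 tumors, 12210 to 280437 in the other 25 and 225122 in T11. These markers moved with every claudin-low difference within the Plk2-/-;p53-/- tumors, and their part in those differences was not tested.

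Within the Plk2-/-;p53-/- tumors, the 3 claudin-low tumors had higher Cep135 and Cenpj and lower Cep63 than the other 25. These were 2 members higher and 1 lower, where 20.2% of the 17153 genes tested were higher and 17.1% lower. Cep135 was at 706 in PLK2null-743, 720 in PLK2null-732 and 946 in PLK2null-733, against 248 to 540 (median, 337) in the other 25. All 3 lay above all 25, as did 11.1% of genes, and the difference was 1.17 ± 0.201 (SE; adjusted p = 3.46e-05), from 1.04 to 1.25 when any 1 of the 3 was left out. In an exact two-sided permutation test the p of Cep135 was 0.00030525, the smallest that 3 against 25 allows.

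Cep63 was at 417 in PLK2null-743, 450 in PLK2null-733 and 456 in PLK2null-732, against 464 to 1349 (median, 702) in the other 25. All 3 lay below all 25, as did 8.87% of genes, with a narrow gap, and the difference was -0.73 ± 0.257 (SE; adjusted p = 0.0266). The call was lost when any 1 of the 3 was left out (adjusted p from 0.0790 to 0.107) and with the proliferation mean as a covariate (-0.57; adjusted p = 0.0812). Anapc13, a gene on the other strand, shares 2.49% of the exon bases of Cep63.

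Cenpj was at 449 in PLK2null-743, 489 in PLK2null-732 and 640 in PLK2null-733, against 239 to 623 (median, 329) in the other 25. Only the last lay above all 25, and the difference was 0.63 ± 0.240 (SE; adjusted p = 0.0394). That call was lost without any 1 of the 3 tumors (adjusted p from 0.0621 to 0.235), after median-ratio rescaling (adjusted p = 0.0595), after quantile normalization (adjusted p = 0.0612) and with the length and GC term removed (adjusted p = 0.0586), where 21.5% of genes were higher and 16.3% lower. Stil was at 617, 722 and 857 in PLK2null-743, PLK2null-732 and PLK2null-733, against 335 to 864 (median, 484), and its difference of 0.51 ± 0.237 (SE) was not called (adjusted p = 0.0913). With the proliferation mean as a covariate it was called (0.80; adjusted p = 0.00142).

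The other 6 members and Plk4 were not called. Differences ran from -0.35 for Pcnt (adjusted p = 0.371) to -0.04 for Tubg1 (adjusted p = 0.921). Plk4 was at 764 in PLK2null-743, 889 in PLK2null-732 and 1074 in PLK2null-733, within the range of the other 25, and differed by -0.07 (adjusted p = 0.831). The proliferation sum of the 3 tumors, 18558 to 25907, lay in the lower part of the range of the other 25, 17980 to 70745 (median, 31228).

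The other centrosome lists are read against the 20.2% of all genes that were higher and the 17.1% that were lower in the 3 claudin-low tumors, and the assembly and pericentriolar counts were near or below these shares. Of the 24 other assembly genes, 3 were higher, led by Cep57 (1.25; adjusted p = 7.94e-06) and Cep295 (1.20; adjusted p = 0.000116), and 4 were lower, led by Kif24 (-1.31; adjusted p = 0.00238). Of the 21 pericentriolar genes 4 were higher, with Tubgcp5 first (0.69; adjusted p = 0.0433), and 3 lower, with the spindle kinase Aurka first (-0.91; adjusted p = 0.0157). Of the 21 appendage, linker and satellite genes 4 were higher, led by Cntln (2.28; adjusted p = 0.0126) and Nin (1.29; adjusted p = 0.000724). The other 7 called were lower, led by Ninl, the ninein-like gene (-2.28; adjusted p = 1.55e-05), Cep290 (-1.86; adjusted p = 0.00142) and Ssx2ip (-1.80; adjusted p = 3.93e-07).

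T11, a single tumor, allows no replicate check. Its Cep63, at 282, was the lowest of all 41 tumors, below 466 to 829 in the other 12 p53-/- tumors. T11 minus the mean of those 12 was -1.12 in log2(value + 1). Its Cep135, at 154, lay inside the range of the other 12, 97.9 to 273, unlike the 3 claudin-low Plk2-/-;p53-/- tumors. Stil at 258, Cenpj at 189 and Plk4 at 1164 also fell between the extremes of the other 12. Nedd1, at 872, was the highest of the 13.

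A fit with genotype, claudin-low class and their interaction, added after seeing the data, set T11 against its genotype beside the other 3 against theirs. The interaction was called for Cep135 alone among the members (1.31 ± 0.424, SE; adjusted p = 0.0408), where 9.97% of genes were called in either direction. For Cep63 it was 0.39 (adjusted p = 0.678). On the T11 side the fit rests on 1 tumor, assumed to vary like the others, so it describes T11 and cannot show that a claudin-low difference depends on genotype.

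The third comparison related each member to Plk4 across tumors, on log2(value + 1) and within each genotype, with permutation tests of Pearson's r (100000 resamples, two-sided) adjusted over the 10 relations of a genotype. Stil, Cep152, Sass6 and Cep192 rose with Plk4 in the Plk2-/-;p53-/- tumors. Pearson's r was 0.71 for Stil (Spearman's rho 0.70; permutation p = 4.00e-05, adjusted 0.000250) and 0.69 for Cep152 (rho 0.69; permutation p = 5.00e-05, adjusted 0.000250). It was 0.60 for Sass6 (rho 0.59; permutation p = 0.000690, adjusted 0.00230) and 0.57 for Cep192 (rho 0.56; permutation p = 0.00149, adjusted 0.00372). Without PLK2null-1974 and PLK2null-1973, the tumors farthest from the median of Plk4, r was 0.70, 0.77, 0.61 and 0.53 in the same order.

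Of the other members in the Plk2-/-;p53-/- tumors, Nedd1 had r of 0.40 (permutation p = 0.0342, adjusted 0.0684) and Cep135 0.34 (permutation p = 0.0751, adjusted 0.125). Cep135 passed by rank, with rho of 0.50 (adjusted permutation p = 0.0153). Cenpj had r of 0.29, Pcnt 0.22, Cep63 0.17 and Tubg1 -0.04, with adjusted permutation p from 0.196 for Cenpj to 0.850 for Tubg1. Without the 2 tumors named, Cenpj stood at 0.49 (adjusted permutation p = 0.0221).

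In the 13 p53-/- tumors Sass6 had r of 0.77 with Plk4 (rho 0.80; permutation p = 0.00199, adjusted 0.0187) and Cep152 0.73 (rho 0.72; permutation p = 0.00374, adjusted 0.0187). Without p53null-2396R and p53null-5317, the lowest and highest for Plk4, r was 0.75 for Sass6 and 0.51 for Cep152 (adjusted permutation p = 0.266). Leaving these 2 tumors out also narrows the range of Plk4 and leaves fewer tumors. The lower r therefore cannot show that the relation of Cep152 rests on them. Stil had r of 0.59 (permutation p = 0.0315, adjusted 0.0788), which was 0.86 without them (adjusted permutation p = 0.00360). Cep192 had r of 0.49 (permutation p = 0.0841, adjusted 0.142) and 0.79 without them (adjusted permutation p = 0.00870).

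Cep135 had r of 0.64 in the p53-/- tumors (permutation p = 0.0209, adjusted 0.0696), and 0.30 without the same 2. Nedd1 stood at 0.50, Cenpj at 0.29, Pcnt at 0.24, Tubg1 at 0.14 and Cep63 at -0.20. Without the library labelled p53null-7435, r was 0.77 for Sass6 and 0.73 for Cep152, both still past the threshold. Whether any relation differed between the genotypes was not tested.

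**Figure D4:**
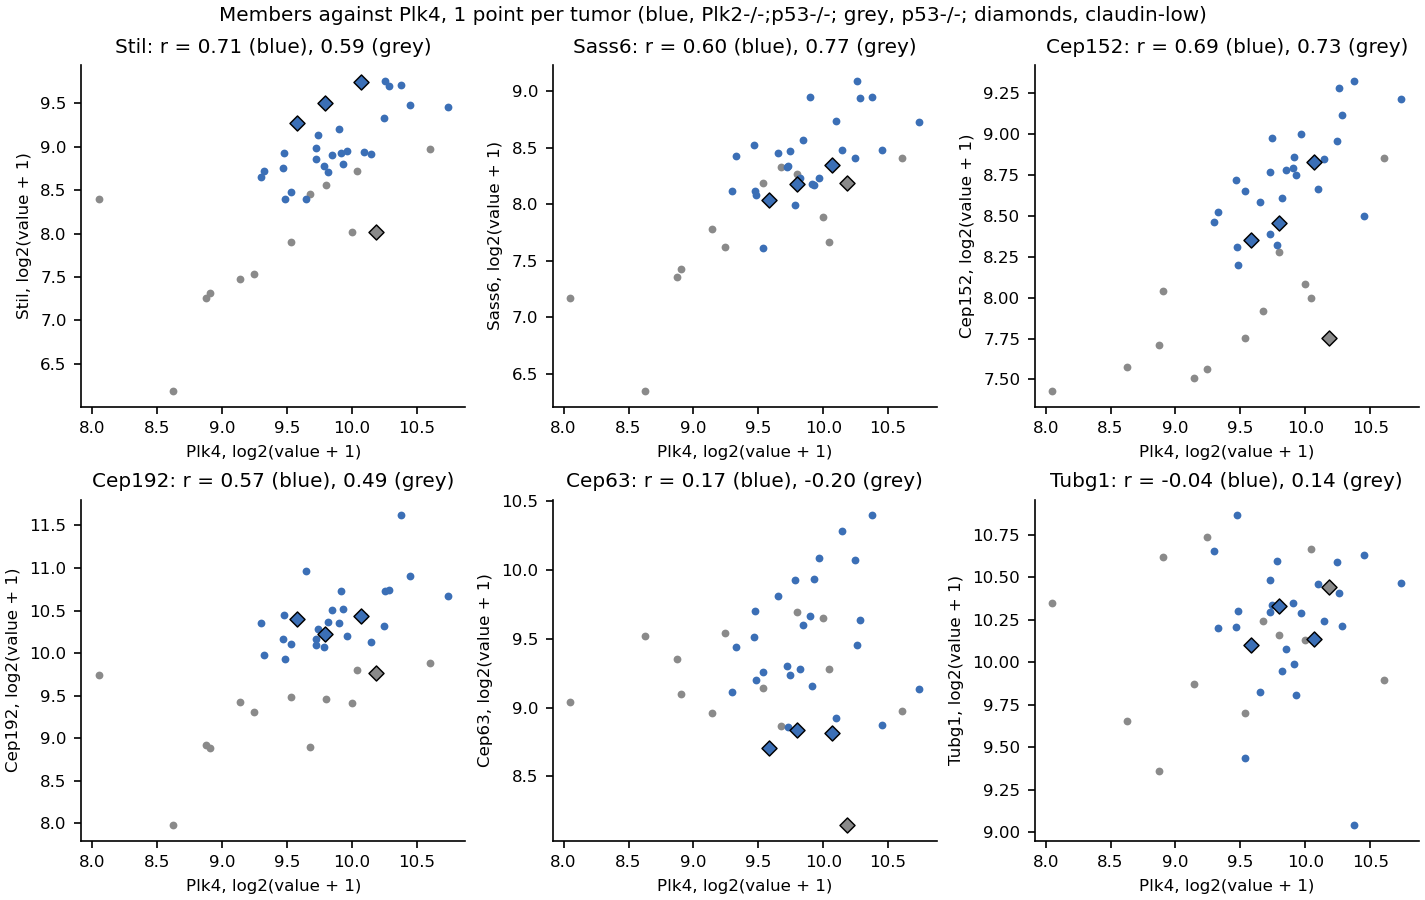
Stil, Sass6, Cep152, Cep192, Cep63 and Tubg1 against Plk4, both on log2(value + 1), with 1 point per tumor. Blue points are Plk2-/-;p53-/- tumors, grey points p53-/- tumors and outlined diamonds claudin-low tumors. Pearson's r for each genotype stands above each panel, from 0.71 for Stil to -0.04 for Tubg1 in the Plk2-/-;p53-/- tumors.

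In each genotype 4 of the 10 members had r of at least 0.5 with Plk4, against 3.8% of 17152 genes in the Plk2-/-;p53-/- tumors and 6.47% of 16665 in the p53-/- tumors. These were Stil, Sass6, Cep152 and Cep192 in the former and Stil, Sass6, Cep152 and Cep135 in the latter. The E2F word TTCCCGC, shown earlier for Plk4, Cep152 and Pcnt, also stood in the Stil promoter, and in the Plk2-/-;p53-/- tumors r with Plk4 was 0.71 for Stil, 0.69 for Cep152 and 0.22 for Pcnt. Cep63, with r of 0.17, held the word TTTCGCG instead. Sass6, Cep135 and Cenpj, with r of 0.60, 0.34 and 0.29, had no E2F word in their windows. No window was searched for Cep192, Tubg1 and Nedd1, with r of 0.57, -0.04 and 0.40, so whether they hold these words is not known here. In the p53-/- tumors r was 0.59 for Stil, 0.73 for Cep152, 0.24 for Pcnt and -0.20 for Cep63, which hold an E2F word. It was 0.77 for Sass6, 0.64 for Cep135 and 0.29 for Cenpj, which hold none. Whether the words bear on these relations was not tested.

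Proliferation moved with Plk4. The mean of the 8 proliferation genes had r of 0.85 with Plk4 in the Plk2-/-;p53-/- tumors and 0.82 in the p53-/- tumors, and over all 41 tumors the genes most like Plk4 were Smc4 (r = 0.91), Cenpe (0.89), Iqgap3 (0.83), Exosc8 (0.82) and Top2a (0.81). Whsc1 (0.81), Prc1 (0.80), Ncapg (0.79), Bub1 (0.78) and Depdc1a (0.78) followed. Smc4 and Ncapg are condensin subunits, Cenpe a kinetochore motor, Prc1 a spindle midzone protein and Bub1 a spindle checkpoint kinase. Among 17207 genes ranked in this way, Sass6 was 19th (r = 0.75), Cep152 43rd (0.71), Stil 60th (0.69) and Cep192 182nd (0.60). Cep63 was 6432nd (0.11) and Tubg1 7088th (0.08). These ranks pool the genotypes, so the genotype difference enters them. Within the 28 Plk2-/-;p53-/- tumors Stil ranked 60th, Cep152 72nd, Sass6 255th and Cep192 353rd of 17152 genes. Within the 13 p53-/- tumors Sass6 ranked 71st, Cep152 120th, Stil 536th and Cep192 1119th of 16665.

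Given the proliferation mean, the partial correlation of Stil with Plk4 in the Plk2-/-;p53-/- tumors was 0.66 (adjusted permutation p = 0.00120). Stil alone of the members stayed past the threshold. Without adjustment 3 members passed, Stil, Cep135 (0.45; permutation p = 0.0160) and, in the negative direction, Cep63 (-0.46; permutation p = 0.0152). The partial correlation was 0.36 for Cep152, 0.22 for Sass6 and 0.02 for Cep192. In the p53-/- tumors 0 members passed the permutation test after adjustment and 1, Nedd1, did without it (0.64; permutation p = 0.0171, adjusted 0.171). There the partial correlation was 0.45 for Cep152, 0.36 for Sass6 and -0.27 for Stil.

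The members were only loosely tied to each other. Over their 45 pairs the median r was 0.18 in the Plk2-/-;p53-/- tumors and 0.26 in the p53-/- tumors, with 8 and 10 pairs at 0.5 or more. Sass6 and Cep152 made the closest pair in the former (0.67), and Cep192 and Tubg1 the most opposed (-0.43). Stil and Cep192 made the closest pair in the latter (0.82), and Cep63 and Nedd1 the most opposed (-0.33). These are descriptions over tumors that share processing and, in part, proliferation.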

How the data were processed

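RNA-seq values were analysed for 41 mammary tumors, 28 Plk2-/-;p53-/- and 13 p53-/-, grouped by the strain labels. The deposited signal values were made by the authors as gene-level Salmon estimates with upper-quartile normalization. The upper quartile of nonzero genes was worked out for p53null-2224L only, where it was 1000. The submitters' processing notes name STAR 2.7.6a, Salmon 1.4.0, Picard 2.22.4, SAMtools and mm10, and the gene annotation is not given in the sources used here. Per tumor, 73.8% to 80.3% of values above 0 were whole reads to within 0.1 read, so reads were not recovered and no count test was run. Implied depth allowed a floor of 3 reads at a value of 1.16 to 2.45, which covers counting error only.

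Values were analysed as log2(value + 1), a scale that understates changes of low genes. Genes with a mean of at least 10 were fitted with limma 3.58.1 in R 4.3.3, unpaired, with Benjamini-Hochberg adjustment and a threshold of 0.05. Correlations and permutation tests (100000 resamples, or all 3276 splits of 3 against 25) used Python 3.11.15, numpy 2.4.6, scipy 1.17.1 and pandas 2.3.3, and figures matplotlib 3.10.9. Positions and lengths came from GENCODE vM21 (GRCm38), which gave 1 gene for 95.0% of symbols. All members and Plk4 were named, with the 10 genes closest to Plk4, and other list genes only from the 3 largest called changes in each direction of a list. The members and lists were chosen with earlier results of these data known. Alternatives added after seeing the data were the length and GC term, the proliferation covariate in the group comparisons, the interaction, and the fits without PLK2null-7748, p53null-10152, p53null-7435 or the 2 tumors farthest in Plk4. Scripts were tested on simulated data.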

Additional observations from a re-analysis of the deposited data

Results flagged for a closer look

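Among the 7 Plk2-/-;p53-/- tumors with numbers that begin with 77, Cep192 was at 3151 in PLK2null-7748, far from the other 6. For a single gene, chance puts about 1 group in 20 this far out. All members and Plk4 were searched, so 1 such value among them is more likely than that. PLK2null-7748 was also the highest of the 28 for Cep152 and Cep63 and the lowest for Tubg1. Without it the genotype difference of Cep192 was 1.07 (limma, adjusted p = 1.14e-08).

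For Cep135, the claudin-low difference was 1.17 in log2(value + 1) within the Plk2-/-;p53-/- tumors and -0.14 for T11 against the other p53-/- tumors, 1.31 apart in the interaction fit. T11 is 1 tumor, so a dependence on genotype cannot be shown from it.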

How the results depend on the processing

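Over all alternatives run, the genotype difference of Cep135 stayed called, from 0.71 to 1.23, as did its claudin-low difference, from 1.04 to 1.38. Stil, Cenpj, Cep152 and Cep192 lost the genotype call only with the 77-numbered tumors and the length and GC term together, which left 1 member called. Median-ratio rescaling moved the median genotype difference of all genes from 0.10 to -0.02 and the split from 4175 higher and 2627 lower to 3391 and 3484, with 7 members still called. Genes called higher were 2707 with the term removed, 1972 with the 77-numbered tumors alone and 1032 with both, and genes called lower 970 and 766 in the last pair of fits. In the claudin-low comparison, 5253 genes were higher with no filter on the mean. There 1 member was higher after median-ratio rescaling, quantile normalization or removal of the term, and 1 to 1 when a claudin-low tumor was left out. Members lower by limma were 0 with the proliferation covariate and 0 to 0 with a claudin-low tumor left out. Members past the threshold with Plk4 were 1 in the Plk2-/-;p53-/- and 0 in the p53-/- tumors by partial correlation, and 6 in the latter with the term removed. The cause of these changes was not tested.

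Signs turned as follows, all in uncalled values of the alternative. For the genotype, Cep63 was -0.28 with the term removed and -0.19 with the 77-numbered tumors as well, Nedd1 -0.22 and -0.15, and Tubg1 -0.031 after median-ratio rescaling and -0.10 with the 77-numbered tumors. For the claudin-low class, the proliferation covariate gave Cep152 0.0077, Cep192 0.19 and Plk4 0.27, the term removed gave Tubg1 0.069, and leaving out 1 claudin-low tumor gave -0.11 to 0.0064 for Tubg1 and -0.20 to 0.045 for Plk4, the highest of each without PLK2null-743. With Plk4 in the Plk2-/-;p53-/- tumors, partial r was -0.46 for Cep63, -0.025 for Pcnt and 0.13 for Tubg1. There Tubg1 was 0.029 by rank, 0.012 after rescaling and 0.25 with the term removed, and Nedd1 -0.027 in the 77-numbered tumors. In the p53-/- tumors partial r was -0.27 for Stil and -0.057 for Tubg1, and Cep63 was 0.050 without T11 and 0.063 with the term removed. No paired analysis was possible because replicate numbers were given in accession order only.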
